A study of Mus musculus with 8 samples.

Results

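Cytosolic ribosomal protein genes, the Rpl and Rps genes of the mouse, were examined in belly skin. Members were chosen by gene symbol: every probe set annotated to exactly 1 symbol made of Rpl or Rps and a number, with an optional letter a, l or x, and the symbols Rplp0, Rplp1, Rplp2 and Rpsa. A probe set is a group of short oligonucleotides on the array that together read 1 transcript. The rule found 46 genes on 100 probe sets, out of 18193 genes on 34945 probe sets with 1 symbol. A mean level at or above log2 6.45, the 40th percentile of all probe sets, was reached by 91 of the 100 probe sets and 45 of the 46 genes. Rps16 was the gene that did not reach it, with its 1 probe set at a mean of log2 4.67. Closest to this level were probe sets of Rps6 at 6.12 and Rps18 at 6.04 below it, and of Rpl35 at 6.45 and Rps24 at 6.57 above it. Another 110 probe sets carried a ribosomal protein symbol among several symbols, and 28 ribosomal protein genes were read only there. Rplp1, Rpl5 and Rps27a were not among the members.

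The ribosome is built from a small subunit, which reads the mRNA, and a large subunit, which joins the amino acids, and each consists of ribosomal RNA and a set of small basic proteins. Their mRNAs are among the most abundant of a cell. Most of them start with a pyrimidine tract at the cap, the 5′TOP motif, through which mTOR controls how well they are translated. MYC raises the transcription of the ribosomal protein genes and of the factors that assemble ribosomes. In skin, loss of a single ribosomal protein can be seen by eye: mice with point mutations in Rps19 or Rps20 have dark skin.

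RNA came from belly skin of mice aged 8 months. Of the 7 animals, 4 were transgenic (7 and 84 female, 11 and 17 male) and carried human hurpin, the serpin SERPINB13, an inhibitor of the protease cathepsin L. The other 3 were wildtype (26 and 28 male, 29 female), and RNA of wildtype 29 went onto 2 arrays. The promoter of the transgene, the founder line and the strain are not given in the sources used here. Levels are log2 of the array signal plus 21.8, differences are transgenic minus wildtype on that scale, and the arrays of wildtype 29 were averaged unless both are given. All 10 keratinocyte genes on the marker list, among them Krt5, Krt14 and Krt10, were above the level filter, as the label of skin would have it.

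Some facts of the series touch every comparison. The summed signal of an array lay between 34537792 and 37556671. The 3′ to 5′ signal ratio of Gapdh, an array control for how far the labelled RNA reaches, was 17.2 and 13.8 on the arrays of transgenic females 84 and 7, 4.68 for male 17 and 1.45 for male 11, against 0.927 to 1.41 on the wildtype arrays. Values adjusted for this ratio come from a fit that holds its log2 as a second term. Every transgenic array had a higher ratio than every wildtype array. With 7 animals that fit therefore cannot cleanly separate the group from the ratio, and its values are given as description only. Genes of the hair shaft and matrix (20 of 21 tested, all but Krt85) had a median deviation from the wildtype mean of -4.37 in wildtype 26, -1.92 in transgenic 17 and 0.92 to 2.17 in the other animals. Their summed level was log2 14.60 to 18.07 in transgenic and 11.80 to 18.28 in wildtype animals. Genes of dividing cells (19 of 20 tested, all but Ccnb1) were lowest in the same pair of animals, at -0.97 and -0.81, followed by transgenic 7 at -0.21, with summed levels of log2 14.11 to 15.37 in transgenic and 13.98 to 15.33 in wildtype animals. Fewer cells of a type and less RNA per cell cannot be told apart in these whole-skin samples.

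The comparison asked which transcripts differ in skin that expresses hurpin. No difference in a ribosomal protein gene was detectable between transgenic and wildtype skin. None of the 91 tested probe sets passed an adjusted p of 0.05, where 0.0148% of all 27022 tested probe sets did (limma with Benjamini-Hochberg adjustment, smallest adjusted p of a member 0.277). Taken as 1 value per gene, from its brightest probe set, none of 45 genes passed, as was the case for 0% of 13559 genes (smallest adjusted p of a member 0.547). At an unadjusted p under 0.05, Rps6 was above 0 and Rpl27a below 0, which is 4.44% of the members against a background of 9.07% of all genes. The interaction of group and sex was called for no member, against 0% of all probe sets, and its unadjusted p was under 0.05 for 2 members, probe sets of Rps3 and Rps9, and for 2.86% of all probe sets.

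The limits on the size of a difference were narrow for the members with strong signals. The 95% interval of limma lay within 0.5 log2 of 0 on both sides for 35 of 45 members, against 2444 of 13559 genes. Most members of lower signal had wider intervals, such as -1.32 to 0.63 for Rps4l and -1.11 to 0.60 for Rps27. Rpl12 (-0.42 to 0.37) and Rps27l (-0.01 to 0.50) were the ones among them within 0.5. Intervals of equally bright genes outside the family were not set beside these. The median width of the interval was 0.56 for the members and 1.01 for all genes. The estimated difference was under 0.25 in size for 40 of 45 members. These intervals are not adjusted for the number of genes and are not limits of detection. Rps6 (1.04) and Rpl27a (-0.75) had differences beyond 0.5 and were not called with 7 animals.

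**Figure D1:**
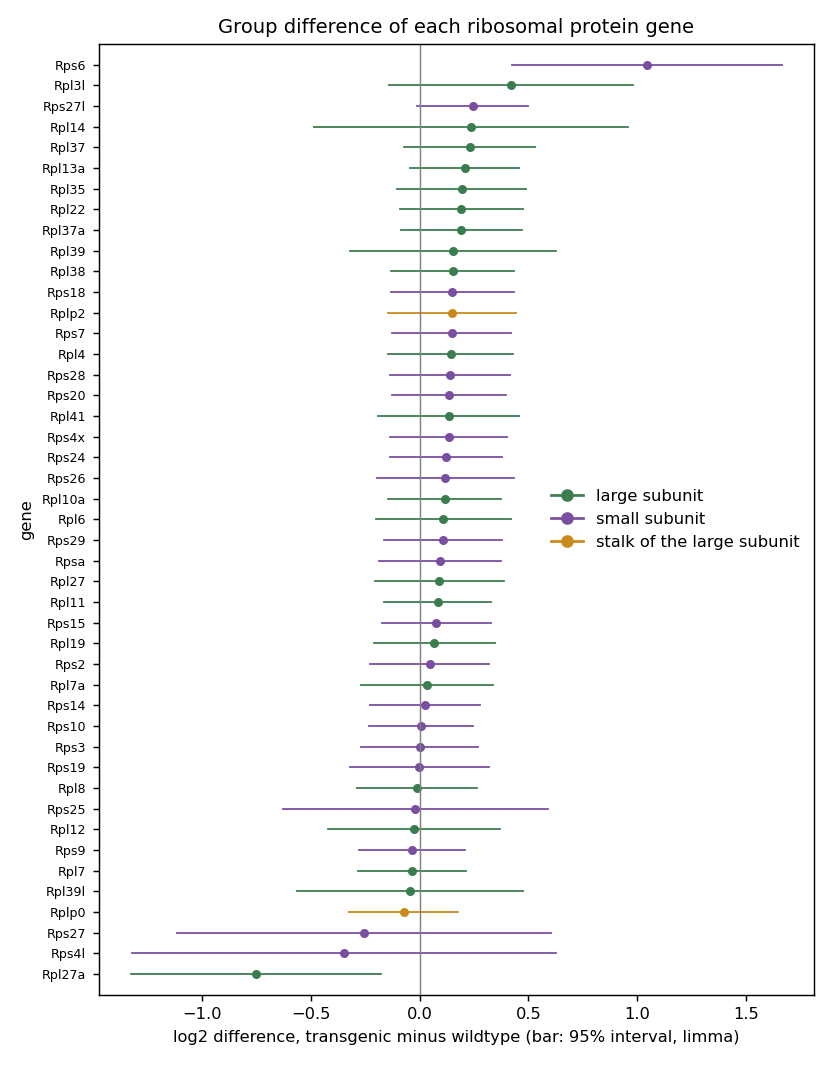
Log2 difference, transgenic minus wildtype (x axis), of each of 45 ribosomal protein genes (y axis, ordered by the difference), with the 95% interval of limma as a bar and the subunit as colour. Only the intervals of Rps6 at the top and Rpl27a at the bottom leave out 0, and 34 of 45 points lie above 0, a count that was 11 after cyclic loess normalization and 20 adjusted for the Gapdh ratio.

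Whether the members as a whole lay above or below 0 depended on the scaling. Of 45 genes, 34 had a difference above 0 (75.6%, against 56.3% of all genes), with a median of 0.11 against 0.05 for all genes, and this turned to 11 of 45 and -0.03 after cyclic loess normalization and to 20 of 45 and -0.01 adjusted for the Gapdh ratio. The median of all genes was 0.06 after cyclic loess and 0.04 adjusted for the Gapdh ratio. After quantile normalization the median of the members was 0.03, below the 0.08 of all genes. Without transgenic 7 and 84, the animals with the largest Gapdh ratios, it was 0.02 with 27 of 45 genes above 0, against 0.04 for all genes. Leaving out transgenic 7 alone gave 0.05 for the members and for all genes. Leaving out transgenic 17 gave 0.16 against 0.05. The large subunit (22 genes) had a median difference of 0.12 with 17 above 0, and the small subunit (21 genes) 0.09 with 16 above 0, and both medians were below 0 after cyclic loess (-0.03 and -0.06) and adjusted for the Gapdh ratio (-0.01 and -0.0025).

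Transgenic animals differed from each other by more than the groups did. The median deviation of the 45 genes from the wildtype mean was largest in transgenic 7 at 0.26, followed by 0.14 for animal 84, 0.07 for 11 and -0.04 for 17. It was 0.07 in wildtype 28 and -0.04 in wildtype 26 and in wildtype 29. The 2 groups overlapped: transgenic 17 lay with the lower wildtype animals, and transgenic 11 with wildtype 28. Transgenic 7 held the highest value for 31 of 45 members, while it did so for 16.2% of all genes. The lowest value fell to wildtype 29 for 13 members, to transgenic 17 for 12 and to wildtype 26 for 10.

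The arrays of wildtype 29 give a technical difference for that animal only, which is not an estimate of technical spread. The second array read lower than the first for 37 of 45 members, by a median of 0.14, where the median over all genes was -0.01. For 27 of 45 members the group difference was smaller in size than the difference between these arrays, as it was for 6002 of 13559 genes. A difference of group means and a difference of single arrays do not vary alike, so these counts are description only. The largest such array differences belonged to Rpl39l (-0.51), Rps25 (-0.42), Rpl39 (0.39), Rps27 (-0.39) and Rps6 (-0.32), where negative values are lower on the second array.

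**Figure D2:**
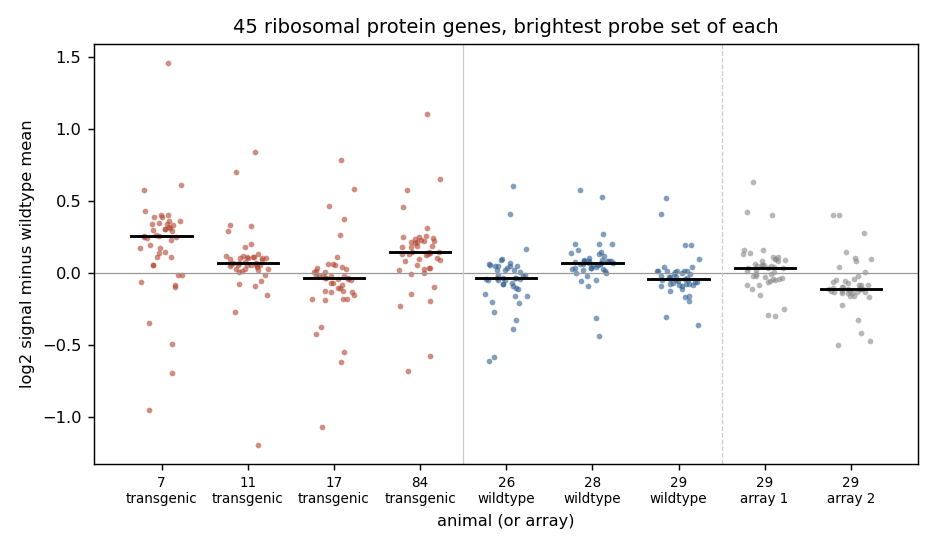
Log2 signal minus the wildtype mean (y axis) of 45 ribosomal protein genes in each animal (x axis), with the arrays of wildtype 29 shown again one by one at the right, and black bars for medians. The medians of the animals run from -0.04 in wildtype 26, wildtype 29 and transgenic 17 to 0.26 in transgenic 7, and those of the arrays of wildtype 29, at 0.04 and -0.11, differ more than those of wildtype 26, 28 and 29 do from each other.

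As a share of the summed signal of an array, the 100 probe sets made up 5.36%, 5.07%, 4.72% and 5.07% in transgenic 7, 11, 17 and 84. In the wildtype animals the share was 4.80% in 26, 4.99% in 28 and 4.76% in 29, the last from array values of 4.91% and 4.62%. The means were 5.05% ± 0.26 (SD, n = 4) and 4.85% ± 0.12 (SD, n = 3), a difference of 0.20 percentage points that was smaller than the spread among transgenic animals. Transgenic 17 was below every wildtype animal and the other 3 transgenic animals were above every one. The difference was 0.10 percentage points without transgenic 7, 0.31 without transgenic 17 and 0.04 without transgenic 7 and 84.

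The spread over animals differed between members. A mean of log2 14, a limit chosen after the values were seen, was reached by 33 genes, called bright here. Across the 7 animals the range of such a gene was 0.16 to 0.52, with a median of 0.36. The other 12 genes had ranges of 0.41 to 1.89, with a median of 0.97. A low reading of a probe set need not be the level of its gene: probe sets of Rps20 had means from 7.24 to 15.11. The narrowest ranges belonged to Rps10 (0.16), Rps9 (0.18), Rplp0 (0.24), Rpl7 (0.24) and Rps15 (0.24), and the widest to Rps6 (1.89), Rps4l (1.77), Rpl27a (1.71), Rps27 (1.53) and Rpl14 (1.19).

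The bright members moved together from animal to animal. The mean pairwise Pearson correlation over 7 animals was 0.57 among the 33 bright members and -0.01 among the 12 dim ones, and 0.36 over all 45, where all tested genes gave 0.01. Removing the group means left the value for all 45 at 0.36. Moving together was not particular to the members. Of the related lists described below, ribosome biogenesis genes had a mean correlation of 0.41 and translation factors of 0.27. Mitochondrial ribosomal proteins had 0.18 and other 5′TOP mRNAs 0.13. The cell type marker lists ran from 0.13 for keratinocyte genes to 0.94 for genes of the hair shaft and matrix. Of the 33 bright members, 19 correlated above 0.8 with the median of the other members, led by Rpl38 (0.99), and none of the 12 dim ones did. Most members are bright, so this median mainly follows the bright ones. The contrast of bright and dim members is therefore partly set by the calculation. Rps9 (-0.47) and Rps19 (-0.31) were the bright members that ran against this median. Every such value shares the scaling of its arrays: after quantile normalization the mean correlation of the bright members was 0.11, and after cyclic loess it was 0.53.

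Other genes with strong signals had a like median difference but a lower mean correlation than the bright members. The 90 genes outside the family with a mean of at least log2 14 had a median difference of 0.14, with 76 above 0, and a highest median deviation of 0.32 in transgenic 7. Their median difference was -0.01 after cyclic loess and 0.03 adjusted for the Gapdh ratio. Their mean correlation was 0.35 against 0.57 for the bright members, 0.10 against 0.11 after quantile normalization and 0.03 against 0.53 after cyclic loess. The second array of wildtype 29 was lower than the first for 75 of these 90 genes. The brightest member signal on an array was 37815 to 49915, beside 39332 to 54209 for the brightest probe set of any kind.

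The pyrimidine tract that marks these genes could be looked for in the RefSeq promoter sequences of mouse (assembly GRCm38.p6), which held 40 of the 46 members. The search, on the transcribed strand, was for a C followed by C or T only, 5 bases or longer in all, with its first C within 5 bases of an annotated start. It was present in 19 of 40 members (47.5%), in 17 of 67 mitochondrial ribosomal protein genes (25.4%) and in 21.2% of 27025 genes of the table. The search rests on annotated starts, so a member without a hit was not shown to lack the motif. It also counts runs of only 5 bases, as in Rpl19 and Rps27l. Windows of 30 bases, from 10 before to 20 from the start on, are printed for the members that the comparisons below turn on, with the tract in capitals.
Rps6 (chr4:86857348-86857377, minus strand): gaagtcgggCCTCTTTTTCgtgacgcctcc
Rps9 (chr7:3704031-3704060, plus strand): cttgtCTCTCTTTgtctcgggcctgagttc
Rps10 (chr17:27635225-27635254, minus strand): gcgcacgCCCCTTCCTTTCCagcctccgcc
Rpl13a (chr7:45128726-45128755, minus strand): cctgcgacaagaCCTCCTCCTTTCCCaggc
Rpl27a (chr7:109519185-109519214, plus strand): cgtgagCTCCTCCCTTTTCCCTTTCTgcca
Rplp2 (chr7:141447641-141447670, plus strand): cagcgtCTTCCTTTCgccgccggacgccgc
Rps3 (chr7:99483690-99483719, minus strand): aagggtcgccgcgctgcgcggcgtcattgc
The tract was 20 bases long in Rpl27a, 14 in Rpl13a, 13 in Rps10, 10 in Rps6, 9 in Rplp2 and 8 in Rps9, and the window of Rps3 held none by this search. Tested members with a tract by this search (19) had a median difference of 0.12 with 15 above 0. Those without a hit (20) had a median of 0.11 with 16 above 0. After cyclic loess both medians were below 0 (-0.02 and -0.03).

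Among the small subunit proteins, Rps6 had the largest difference of any member's brightest probe set. Rps6 is the ribosomal protein that S6 kinases phosphorylate when mTOR is active. Its signal was 11.54 in transgenic 7, 10.93 in 11, 10.87 in 17 and 11.19 in 84, and 10.69 in wildtype 26, 9.65 in 28 and 9.92 in 29. All transgenic animals were above all wildtype animals, with the closest pair (transgenic 17 and wildtype 26) 0.18 apart. The difference was 1.04 with a standard error of 0.27 (limma, unadjusted p = 0.00384, adjusted p = 0.301), and was 0.68 adjusted for the Gapdh ratio. It ranged from 0.68 to 1.35 over the alternatives, with adjusted p from 0.116 to 1.0. These p-values are from the fit to probe sets. In the fit by gene Rps6 had an unadjusted p of 0.00449 and an adjusted p of 0.547 (limma). The other probe set of Rps6 lay below the level filter, at a mean of 6.12, and showed no such split, with 6.54, 5.95, 5.74 and 6.42 in the transgenic and 5.54, 6.80 and 5.88 in the wildtype animals.

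Genes whose groups did not overlap made up 13.3% of the members (5 above and 1 below of 45), against 9.06% of all genes. Over probe sets the counts were 9 above and 2 below of 91, against 11.3% of all probe sets. The genes with every transgenic animal above every wildtype animal were Rps6, Rps27l, Rpl13a, Rpl22 and Rpl37, and the one below was Rpl27a. Without transgenic 17 the count of 6 genes became 15, and without wildtype 28 it became 11. Groups of fewer animals separate more readily, and the share of all genes under these settings is not given here. Without probe sets ending in _x_at or _s_at the count was 3 of 40 genes, also without a share of all genes beside it. These counts therefore do not set the members apart from other genes.

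Rps27l, a paralog of Rps27 that p53 induces, was read alike by its 3 probe sets. The brightest gave 13.55, 13.32, 13.47 and 13.47 in transgenic 7, 11, 17 and 84, and 13.14, 13.27 and 13.22 in wildtype 26, 28 and 29. The groups were separated by 0.05 between transgenic 11 and wildtype 28. The difference was 0.24 with a standard error of 0.11 (limma, adjusted p = 0.436), and the other probe sets gave 0.21 and 0.22, with overlap. Rps27 itself was scattered, at 7.39 to 8.92 in transgenic and 8.03 to 8.92 in wildtype animals, with a difference of -0.26.

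Rps3, a protein at the site where mRNA enters the ribosome, gave the most divergent reading within 1 gene. Its brightest probe set was level, at 14.57, 14.49, 14.27 and 14.48 in transgenic and 14.42, 14.54 and 14.40 in wildtype animals, a difference of 0.00. A second probe set, 1455600_at, read 9.86, 10.12, 9.77 and 9.91 in transgenic animals 7, 11, 17 and 84, and 7.89, 8.33 and 9.30 in wildtype 26, 28 and 29. There the transgenic animals lay within 0.35 of each other and the wildtype animals spread over 1.41. The difference of this probe set was 1.41 with a standard error of 0.30 (limma, unadjusted p = 0.00131, adjusted p = 0.277), the smallest p of any member, and it lay between 1.10 and 1.81 over the alternatives, with adjusted p from 0.0857 to 1.0. The remaining probe set of Rps3 was below the level filter. Which transcript or region of Rps3 each probe set reads is not given in the annotation used here.

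For Rps9, a small subunit protein needed early in assembly of the subunit, 1 animal decided the sign and size of 1 probe set. The probe set 1434624_x_at read 14.35, 13.78, 10.32 and 14.35 in transgenic 7, 11, 17 and 84, and 14.07, 14.10 and 14.07 in wildtype 26, 28 and 29. Over all animals this gave a difference of -0.88, which was 0.08 without transgenic 17. The brightest probe set of Rps9 showed no drop in transgenic 17, at 14.32 between 14.27 and 14.45 in the other transgenic animals, and had a difference of -0.03.

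Rps10 was measured by 6 tested probe sets, of which 4 lay at 14 or more and stayed within -0.12 to 0.07 of 0. Another, 1439374_x_at, read 12.40, 12.94, 14.07 and 13.85 in transgenic 7, 11, 17 and 84, and 12.78, 12.82 and 12.61 in wildtype 26, 28 and 29. It was high in transgenic 17 and 84 and lowest in transgenic 7, so the groups overlapped, and its difference was 0.58 with a standard error of 0.37 (limma, adjusted p = 0.556). The brightest probe set of Rps10 differed by 0.01 and was the steadiest of all members, at 14.96 to 15.12 in the 7 animals. The dimmest tested one, 1436384_at, differed by -0.15.

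**Figure D3:**
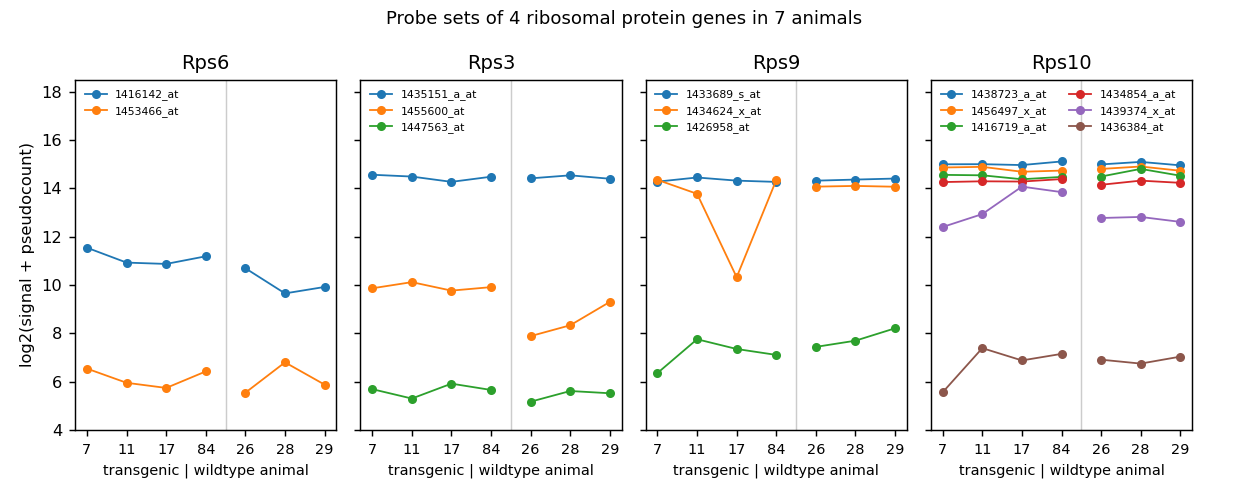
Log2 signal (y axis) of every probe set of Rps6, Rps3, Rps9 and Rps10 in the 4 transgenic and 3 wildtype animals (x axis, by animal number), with 1 colour per probe set and lines that only join values of a probe set within a group. The brightest probe sets of Rps3, Rps9 and Rps10 are flat, while 1455600_at of Rps3 is lower in the wildtype animals, 1434624_x_at of Rps9 drops to 10.32 in transgenic 17 and 1439374_x_at of Rps10 reaches 14.07 there.

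The members known from pigmented skin, Rps19 and Rps20, did not separate the groups. Rps19 read 14.46, 14.81, 14.53 and 14.29 in transgenic and 14.48, 14.55 and 14.54 in wildtype animals, with a difference of -0.0012 (95% interval -0.32 to 0.32). Rps20 read 15.30, 15.04, 15.09 and 15.24 in transgenic and 15.12, 15.01 and 14.96 in wildtype animals, with a difference of 0.14 that was -0.03 both after cyclic loess and adjusted for the Gapdh ratio. Rpsa, the small subunit protein also known as a laminin receptor precursor, read 14.68, 14.73, 14.42 and 14.73 against 14.47, 14.62 and 14.56. Its difference was 0.09, and it was -0.06 after cyclic loess.

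In the large subunit, Rpl27a, a protein mutated in sooty foot ataxia mice, was the member with the most negative difference. Its tested probe set read 9.35, 8.85, 9.49 and 9.46 in transgenic 7, 11, 17 and 84, and 9.71, 10.56 and 9.84 in wildtype 26, 28 and 29. All transgenic animals were below all wildtype animals, by 0.22 at the closest. The difference was -0.75 with a standard error of 0.25 (limma, unadjusted p = 0.0155, adjusted p = 0.343), and it was -0.49 without wildtype 28 and -1.09 adjusted for the Gapdh ratio. Over the 7 animals it correlated at r = -0.24 with the median of the other members.

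Rpl13a, which also takes part in an interferon-induced block of translation, read 15.31, 15.20, 15.11 and 15.22 in transgenic and 15.07, 15.05 and 14.89 in wildtype animals. The closest animals, transgenic 17 and wildtype 26, were 0.04 apart, and the difference was 0.21 with a standard error of 0.10 (limma, adjusted p = 0.461). The other 3 probe sets of Rpl13a gave -0.08, -0.03 and 0.15, each with overlap. Rpl22, a large subunit protein that cells can replace by its paralog Rpl22l1, read 15.21, 14.86, 14.87 and 15.06 against 14.83, 14.84 and 14.75, a difference of 0.19 that was -0.01 adjusted for the Gapdh ratio. Rpl37 read 12.56, 12.56, 12.91 and 12.68 against 12.54, 12.36 and 12.44, a difference of 0.23. Its highest value was in transgenic 17, unlike the bright members.

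Rpl35, Rpl37a and Rpl38 completed the 10 members with the smallest p, with differences of 0.19, 0.19 and 0.15 and overlap between groups, of which Rpl35 and Rpl38 turned to -0.03 and -0.01 adjusted for the Gapdh ratio and Rpl37a was 0.03 in that fit. Rpl38, mutated in Tail short mice, read 15.45, 15.18, 15.09 and 15.32 in transgenic and 15.07, 15.19 and 15.06 in wildtype animals, which is the common course of the bright members. The 5 bright probe sets of Rpl35 gave 0.16 to 0.21, and a sixth near the level filter gave -0.48. Rpl11, which binds Mdm2 when ribosome assembly fails, differed by 0.08 (95% interval -0.17 to 0.33) and by -0.07 after cyclic loess. Rpl41, the smallest protein of the ribosome, ranged from -0.34 on a dim probe set to 0.13 on the brightest.

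The tissue-restricted paralogs of the large subunit were low and variable, but low readings were not particular to them. The parent gene Rpl39 had a mean of 9.13, Rpl12 of 8.78 and Rps27 of 8.19, against 9.36 for Rpl3l and 9.98 for Rpl39l. Rpl3l, the paralog of Rpl3 in striated muscle, read 9.72, 8.96, 9.70 and 9.76 in transgenic 7, 11, 17 and 84, and 9.28, 9.31 and 8.75 in wildtype 26, 28 and 29, a difference of 0.42 that was -0.10 adjusted for the Gapdh ratio. It was lowest in wildtype 29 and transgenic 11, and those were also the animals in which the 15 skeletal muscle markers, all tested, were lowest, with median deviations of -0.33 and -0.09 against 0.07 to 0.48 in the other animals. The summed level of these markers was log2 17.30 to 17.84 in transgenic and 17.03 to 17.68 in wildtype animals. The part of muscle content in this was not tested. Rpl39l read 9.51 to 10.38 in transgenic and 9.84 to 10.27 in wildtype animals (difference -0.05), and its parent Rpl39 had means of 9.20 ± 0.19 (SD, n = 4) and 9.04 ± 0.37 (SD, n = 3), a difference of 0.15. In the small subunit, Rps4l read 8.27 to 10.04 and 8.75 to 9.86 (difference -0.35), while its bright parent Rps4x read 14.83 to 15.11 and 14.78 to 14.95 (difference 0.13, and -0.03 after cyclic loess).

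Of the stalk, the arm of the large subunit that recruits elongation factors, Rplp0 and Rplp2 were measured. Rplp0 read 14.99, 14.86, 14.81 and 14.79 in transgenic and 14.92, 15.03 and 14.86 in wildtype animals. Rplp2 read 15.45, 15.17, 15.03 and 15.21, and 15.02, 15.14 and 15.04. The groups overlapped for both, and the differences were -0.07 and 0.15, the latter -0.02 after cyclic loess.

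Where a gene had several tested probe sets they did not always give 1 answer. Of 19 such genes, 11 had probe sets that differed by less than 0.3 from the lowest to the highest difference, and 11 had all their probe sets on 1 side of 0. The widest spans belonged to Rps3 (0.00 to 1.41), Rps9 (-0.88 to -0.03), Rps10 (-0.15 to 0.58), Rpl35 (-0.48 to 0.21) and Rpl41 (-0.34 to 0.13). By the array maker's naming, _x_at marks probe sets with probes that also match other sequences, which for ribosomal proteins include many processed pseudogenes. Of 38 tested _x_at probe sets, 32 were above 0 with a median of 0.14. Of 24 tested sets that end in _at alone, 13 were above 0 with a median of 0.01, and of 26 _a_at sets 20 with a median of 0.08. After cyclic loess the medians of these sets were -0.02, -0.05 and -0.07 in the same order. How much of a signal comes from near-identical copies cannot be read from these values. The probe sets with several symbols, which were no members, had a median difference of 0.13 (90 of 104 tested above 0, none called), which was -0.02 (39 of 104) after cyclic loess.

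Genes of related function, from lists written for this purpose, were set beside the members. Their adjusted p come from the limma fit by gene, in which the smallest of a member was 0.547. The 76 mitochondrial ribosomal protein genes had a median difference of -0.06 with 31 above 0, none called, and 3 above and 8 below 0 at an unadjusted p under 0.05 (14.5%, against 9.07% of all genes). The 3 with the smallest p were Mrps6 at a difference of 0.67 (limma, adjusted p = 0.548), Mrpl41 at 0.40 and Mrpl46 at -0.45, and these were 0.22, 0.29 and -0.33 adjusted for the Gapdh ratio. Of 44 translation factors, 18 were above 0 with a median of -0.03 and none called. The smallest p belonged to Eif5a, a factor for elongation through difficult sequences, at a difference of -0.60 (limma, adjusted p = 0.548) that was -0.12 adjusted for the Gapdh ratio, followed by the initiation factor gene Eif1b at 0.38 and 0.16. Eef2, the factor that moves the ribosome along the mRNA, read 13.37, 14.12, 13.76 and 13.54 in transgenic 7, 11, 17 and 84, and 14.08 to 14.14 in the wildtype animals. Its difference was -0.41, and 0.07 adjusted for the Gapdh ratio, so the sign turned.

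Other mRNAs of the 5′TOP class (22 tested) had a median of 0.09 with 15 above 0, which was -0.03 with 9 above 0 after cyclic loess. Btf3, a nascent chain factor, differed by 0.30 (0.14 adjusted for the Gapdh ratio), and Eif3k by -0.30, none called. The 76 ribosome biogenesis genes had a median of -0.01 with 34 above 0 (0.0075 with 39 above 0 after quantile normalization), none called, and were lowest in wildtype 26 (-0.34) and transgenic 17 (-0.27), the animals lowest in hair and dividing cell markers, whose part in this was not tested. The ribosomal proteins deviated by -0.04 in both. Utp18, a factor for processing of the small subunit RNA, had the smallest p, with 9.76 to 10.32 in transgenic and 8.72 to 9.56 in wildtype animals, a difference of 0.93 (limma, adjusted p = 0.547). Ubtf and Polr1a, which act in transcription of ribosomal RNA, differed by -0.48 and -0.66, and by -0.23 and -0.48 adjusted for the Gapdh ratio.

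Among 30 genes of mTOR and MYC control, 16 were above 0 with a median of 0.05, which was -0.0078 adjusted for the Gapdh ratio, and none was called. Rps6kb2, which encodes an S6 kinase, read 6.02, 8.09, 7.12 and 6.28 in transgenic 7, 11, 17 and 84, and 8.21 to 8.74 in the wildtype animals, a difference of -1.67 (limma, adjusted p = 0.547) that was -0.25 adjusted for the Gapdh ratio. Akt1 gave a difference of -1.22 with overlap (transgenic 11 at 10.40 lay above wildtype 26 and 28) and Akt1s1 one of -1.04 without overlap, and these were 0.40 and -0.35 with that covariate. The animals with the lowest Rps6kb2 and Akt1 were transgenic 7 and 84, which had the highest Gapdh ratios. Of the genes mutated in inherited red cell aplasia, 11 were tested as members, with a median of 0.11 and 9 above 0, and -0.06 with 1 above 0 after cyclic loess and -0.02 with 4 above 0 adjusted for the Gapdh ratio. Ribosomal proteins whose symbols fall outside the rule showed no common direction, with Fau at -0.12, Rpl22l1 at 0.10, Rpl7l1 at 0.13 and Rsl24d1 at -0.13.

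**Figure D4:**
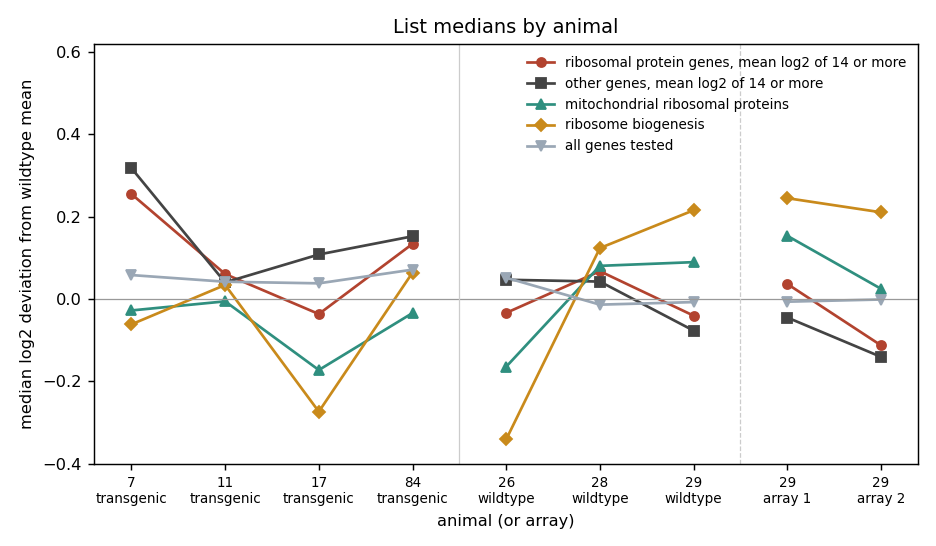
Median log2 deviation from the wildtype mean (y axis) of 5 gene groups in each animal and on each array of wildtype 29 (x axis). Bright ribosomal protein genes and other bright genes are both highest in transgenic 7 (0.26 and 0.32) and both lower on the second array of wildtype 29 than on the first, while ribosome biogenesis genes are lowest in wildtype 26 (-0.34) and transgenic 17 (-0.27).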

How the data were processed

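Per the labels, total RNA was labelled with the Affymetrix one-cycle kit, and per the submitters' processing notes the deposited values are MAS5 signal intensity, scaled per array. The MAS5 version is not given in the sources used here. The trimmed mean of each array (2% off at both ends) was 500.003. Control probe sets (64 of 45101) were left out, and symbols came from the platform annotation. All 8 arrays entered as log2(intensity + 21.8), the pseudocount being the 20th percentile of all values, and 7 animals were compared as separate samples. limma 3.58.1 in R 4.3.3 (group only, empirical Bayes with trend, 2-sided) was fitted to the 27022 probe sets at or above the 40th percentile, with Benjamini-Hochberg adjustment over all of them, and again to 13559 genes by brightest probe set. For named members, standard errors and p-values are from the fit to probe sets. For genes of the related lists they are from the fit to genes, so the adjusted p of these sets are not comparable. The number of arrays limits the precision. On simulated data with 200 of the 27022 probe sets shifted, the mean estimate was checked against the known shift. The simulated shifts were larger than most member differences, and noise was independent for each probe set. Power for differences of the size seen here was therefore not tested.

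Members, lists and tests were chosen with earlier results of these data known. Named were the 10 members with the smallest p, those without overlap, the 5 with the widest and narrowest ranges, the 5 with the largest array difference of wildtype 29, the 5 genes with the widest span over probe sets, paralogs with their parents, a fixed set, and 3 genes of each related list. Lists were described by counts and medians, with no list test. Alternatives were quantile and cyclic loess normalization, other pseudocounts and filters, no trend, sex or the Gapdh ratio as a covariate, either array of wildtype 29, other choices of probe set, and animals left out. Alternatives for the related lists were chosen after seeing the data. Python 3.11.15 with pandas 2.3.3 made the summaries.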

Additional observations from a re-analysis of the deposited data

Results flagged for a closer look

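In 38 groups of 4 transgenic values, 3 held an animal far from the others by Dixon's criterion, and chance marks about 1 group in 20. The Rpl3l value of transgenic 11 was 8.96, below the next at 9.70. The probe set 1434624_x_at of Rps9 was 10.32 in transgenic 17, below the next at 13.78. Rpsa was 14.42 in transgenic 17, below the next at 14.68.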

How the results depend on the processing

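No ribosomal protein gene or probe set was called under any alternative run (limma), and the lowest adjusted p of a named probe set was 0.0857. Few features of any kind were called. Over all probe sets the count was 280 without transgenic 11 and 0 to 12 under the other alternatives fitted to probe sets. Under the same alternatives 0 to 4 of all genes were called, the most without transgenic 84. No paired analysis was possible because the groups share no animal numbers. Signal over background limits the probe sets near log2 6.45, and 7 animals limit all. The causes of the shifts below were not tested.

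The median difference of the members, 0.11, became -0.034 after cyclic loess normalization and -0.0073 adjusted for the Gapdh ratio, and stayed between 0.02 and 0.16 under the other 19 alternatives. It was below the median of all genes after quantile normalization (0.030 against 0.075) and without transgenic 7 and 84 (0.022 against 0.037). The number of members above 0 became 11 after cyclic loess and 20 adjusted for the Gapdh ratio. The number at an unadjusted p under 0.05, 2 in the main analysis, was 1 with the Gapdh ratio and 1 to 4 with animals left out (4 without transgenic 11, 1 without wildtype 28). The number without overlap was 3 of 40 without _x_at and _s_at probe sets. It was 6 to 15 with animals left out, where smaller groups separate more readily. The share of all genes under these settings is not given, so these counts do not set the members apart from other genes. The mean correlation, 0.36, was 0.078 after quantile normalization, 0.26 for the mean over probe sets, 0.25 without _x_at and _s_at probe sets and 0.25 without transgenic 7 and 84. The difference in share of signal lay between 0.04 and 0.31 percentage points.

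Of 680 values of 36 named probe sets under alternatives, 67 turned sign, for 25 of the probe sets, and none was called. Adjusted for the Gapdh ratio, differences were -0.031 for Rpl11, -0.0031 for Rpl14, -0.013 for Rpl22, -0.026 (1434231_x_at) and -0.012 (1455950_x_at) for Rpl35, -0.012 for Rpl38, 0.37 for Rpl39l, -0.10 for Rpl3l, 0.52 (1436384_at) and -0.045 (1438723_a_at) for Rps10, 0.32 for Rps19, -0.034 for Rps20, -0.049 for Rps3 (1435151_a_at), 0.40 for Rps4l and 0.091 for Rps9 (1433689_s_at). After cyclic loess they were -0.070 for Rpl11, -0.019 for Rpl38, -0.034 for Rpl41, -0.023 for Rplp2, -0.16 for Rps10 (1438723_a_at), -0.072 for Rps15, -0.034 for Rps20, -0.15 for Rps3, -0.031 for Rps4x and -0.061 for Rpsa. Quantile normalization gave -0.096 for Rps10 (1438723_a_at) and -0.048 for Rps3 (1435151_a_at). Without transgenic 7 and 84 they were -0.048 for Rpl14, 0.25 for Rpl39l, 0.24 (1436384_at) and -0.031 (1438723_a_at) for Rps10, 0.15 for Rps19, -0.072 for Rps3 and 0.022 for Rps9 (1433689_s_at). The first array of wildtype 29 alone gave -0.0025 for Rps10 (1438723_a_at) and -0.021 for Rps3, and the second gave 0.039 for Rpl39l, 0.047 for Rps19 and 0.050 for Rps25. With sex as a covariate they were 0.030 for Rpl39l, 0.027 for Rps19 and -0.0090 for Rps3.

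With 1 animal left out in turn, differences that turned sign ranged from -0.072 to 0.45 for Rpl14, -0.0032 to 0.36 for Rpl39, -0.19 to 0.10 for Rpl39l, -0.064 to 0.016 for Rpl7, -0.37 to 0.24 (1436384_at) and -0.026 to 0.047 (1438723_a_at) for Rps10, -0.098 to 0.076 for Rps19, -0.22 to 0.18 for Rps25, -0.53 to 0.033 for Rps27, -0.037 to 0.061 for Rps3 and -1.27 to 0.077 for Rps9 (1434624_x_at).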
